A study of Mus musculus with 26 samples.

Results

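The 10 genes described here are expressed by the stromal cells and blood vessels of lymph nodes, or act in the signals that build them: Glycam1, Fut7, Madcam1, Chst4, Lyve1, Ccl21a, Ccl19, Cxcl13, Ltbr and Tnfsf11. They were chosen by name, with earlier results of these data known, and every probe that carried one of these names was taken. This gave 12 probes of the 56605 on the array and 10 of its 37074 gene names. All 10 genes had a probe that passed the filter on dim and outlier spots, among 26154 genes tested. Their mRNA levels were measured in subcutaneous inguinal white adipose tissue of male C57BL6/J mice on 26 1-colour oligonucleotide arrays, with 1 array per labelled replicate. The groups were total ChREBP-KO mice (Mlxipl-null, n = 7), WT littermates of that line (n = 7), ChREBPβ-KO mice (n = 5) and WT littermates of the ChREBPβ line (n = 7). Mlxipl encodes ChREBP, a transcription factor that responds to glucose. ChREBPβ is its shorter isoform, and the ChREBPβ-KO mice lacked the exon 1b from which it starts, removed by CRISPR editing of fertilised oocytes. All groups, the WT mice included, had been fasted for 24 h and were then given food and water with 20% glucose for 18 h before sampling. Ages were not given in the sources used here, and neither was it stated whether the lymph node of the fat pad was removed at dissection.

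A lymph node lies within the inguinal fat pad of the mouse. High endothelial venules are the vessels through which naive lymphocytes enter a node. They carry sulfated and fucosylated sugars, set on carriers such as GlyCAM-1 by enzymes that include the sulfotransferase Chst4 and the fucosyltransferase Fut7, and rolling lymphocytes bind these sugars. Fibroblastic stromal cells then place the entering cells: CCL21 and CCL19 draw cells that carry CCR7 to the T cell zone, and CXCL13 draws cells that carry CXCR5 to B cell follicles. The lymphotoxin β receptor (Ltbr) and RANK ligand (Tnfsf11) signal through the NF-κB pathway when lymph nodes form, and lymphotoxin maintains the venules and stroma afterwards. Cd79b, a chain of the B cell receptor, served as the measure of B cell mRNA on each array.

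The upstream sequences of 5 members are shown first, because 4 of these genes encode the chemokines and the venule mucin with the widest differences and Madcam1 carries most matches to the motif searched. They are given as the 250 bases before the RefSeq start site on the strand of the gene (GRCm38.p6). Capitals mark matches to GGGANNNNCC, a simple form of the NF-κB binding motif, on either strand. The entries are Ccl21a (chr4:42773992-42774241, minus strand), Ccl19 (chr4:42756366-42756615, minus strand), Cxcl13 (chr5:95956689-95956938, plus strand), Madcam1 (chr10:79664309-79664558, plus strand) and Glycam1 (chr15:103565082-103565331, minus strand).
Ccl21a: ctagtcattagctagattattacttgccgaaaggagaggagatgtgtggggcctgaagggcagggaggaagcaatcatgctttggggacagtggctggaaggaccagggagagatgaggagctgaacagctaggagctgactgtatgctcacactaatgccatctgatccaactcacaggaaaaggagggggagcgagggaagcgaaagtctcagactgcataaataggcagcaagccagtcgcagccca
Ccl19: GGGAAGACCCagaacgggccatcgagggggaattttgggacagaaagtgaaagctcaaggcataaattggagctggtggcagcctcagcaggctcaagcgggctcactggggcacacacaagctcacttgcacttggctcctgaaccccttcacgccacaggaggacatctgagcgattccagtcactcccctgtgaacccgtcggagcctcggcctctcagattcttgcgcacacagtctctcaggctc
Cxcl13: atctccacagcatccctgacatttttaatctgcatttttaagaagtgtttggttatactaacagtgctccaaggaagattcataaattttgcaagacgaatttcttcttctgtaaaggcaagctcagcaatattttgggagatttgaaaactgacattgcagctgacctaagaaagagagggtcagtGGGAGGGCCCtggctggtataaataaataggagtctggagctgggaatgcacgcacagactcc
Madcam1: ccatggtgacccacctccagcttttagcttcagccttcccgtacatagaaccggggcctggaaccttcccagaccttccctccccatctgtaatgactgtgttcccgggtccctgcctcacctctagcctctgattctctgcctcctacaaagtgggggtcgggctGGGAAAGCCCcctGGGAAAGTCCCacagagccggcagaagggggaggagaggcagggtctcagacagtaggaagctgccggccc
Glycam1: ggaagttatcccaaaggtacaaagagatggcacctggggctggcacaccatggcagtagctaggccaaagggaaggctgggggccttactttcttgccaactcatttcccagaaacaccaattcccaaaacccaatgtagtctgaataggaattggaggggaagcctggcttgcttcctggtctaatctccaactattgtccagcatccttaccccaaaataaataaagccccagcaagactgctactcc

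A promoter entry was found for 9 of the 10 members. Ccl19, Cxcl13, Madcam1 and Tnfsf11 held a match to GGGANNNNCC, that is 4 of 9, against 5793 of 32851 promoters of the same length, or 17.6%. Madcam1, the addressin that binds the α4β7 integrin of gut-homing lymphocytes, had 3 matches between 84 and 61 bases before its start, of which 2 overlap on opposite strands. The match of Cxcl13 lay 63 to 54 bases before its start and that of Ccl19 at the far end of the window, 250 to 241 bases before it. Ccl21a and Glycam1, which showed the widest differences between groups, held no match in this window. CACGTG, an E box that reads the same on both strands and of which the carbohydrate response element bound by ChREBP holds a pair, was found in 6.02% of all promoters and, among the members, upstream of Ltbr only.

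3 array probes are shown as the sequences that were hybridised. The second Glycam1 probe (A_52_P602847) is placed by the array annotation at chr15:103393339-103393398 on the minus strand of mm9. The Ccl19 probe (A_55_P2099742) is placed at chr4:42250105-42250164 on the plus strand, and the Madcam1 probe (A_51_P517745) at chr10:79127883-79128194 on the plus strand, where its 60 bases are spread over a longer genomic span.
Glycam1 probe: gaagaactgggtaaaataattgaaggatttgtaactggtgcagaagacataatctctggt
Ccl19 probe: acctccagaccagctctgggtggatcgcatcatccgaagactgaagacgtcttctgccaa
Madcam1 probe: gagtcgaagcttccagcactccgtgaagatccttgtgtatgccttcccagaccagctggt

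Ccl21a and Ccl19 lie in a stretch of mouse chromosome 4 with near-identical copies, so their values are uncertain as to the copy read. RefSeq lists Ccl21b, Ccl21c, Ccl21d, Gm13304 and Gm1987 on this chromosome in addition to Ccl21a (chr4:42772860-42773991 in GRCm38.p6), and 3 Ccl19 pseudogenes in addition to Ccl19 (chr4:42754525-42756365). The array annotation places the Ccl21a probe (A_51_P129480) at chr4:42231835-42231894 and the probe named Gm1987 (A_66_P103716) at chr4:42232105-42232164, both on mm9. The 2 probe sequences share no run longer than 4 of 60 bases, so they read different stretches. Whether these stretches lie in the same transcript was not determined. The annotation puts the Ccl21a and Ccl19 probes on the plus strand, while the RefSeq promoters of both genes are on the minus strand.

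Median spot intensity per array ran from 59 to 107.5 over a background of 15 to 23, no spot was saturated, and arrays correlated with each other at r of 0.954 to 0.996 across probes. Mlxipl, the targeted gene, checked the labels. On its brightest probe the log2 level was 16.07 ± 0.25 (SD, n = 7) for WT of the total line and 13.78 ± 0.14 (n = 7) for total ChREBP KO, a difference of -2.29 (SE 0.12, adjusted p = 1.87e-13). In the ChREBPβ line it was 15.68 ± 0.31 (n = 7) in WT and 14.16 ± 0.19 (n = 5) in KO, a difference of -1.52 (SE 0.13, adjusted p = 6.4e-07). No KO array reached a WT array of its line. A second Mlxipl probe (A_55_P2728555) gave -0.90 (adjusted p = 2.34e-06) and -0.68 (adjusted p = 0.0596) in the same comparisons, and another (A_55_P2045158) was not called, at -0.13 (adjusted p = 0.159) and 0.04 (adjusted p = 0.974). Where the probes lie relative to the deleted sequence was not determined. Here and below, levels are quantile-normalized log2 intensities, differences are differences of their means, and adjusted p-values are from limma with Benjamini-Hochberg adjustment over 40168 tested probes. A gene is called to have risen or fallen at an adjusted p of 0.05. Mice came from several litters per protocol by the study's methods, but the labels do not tie arrays to litters, so p-values measure only the spread between these arrays.

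**Figure D1:**
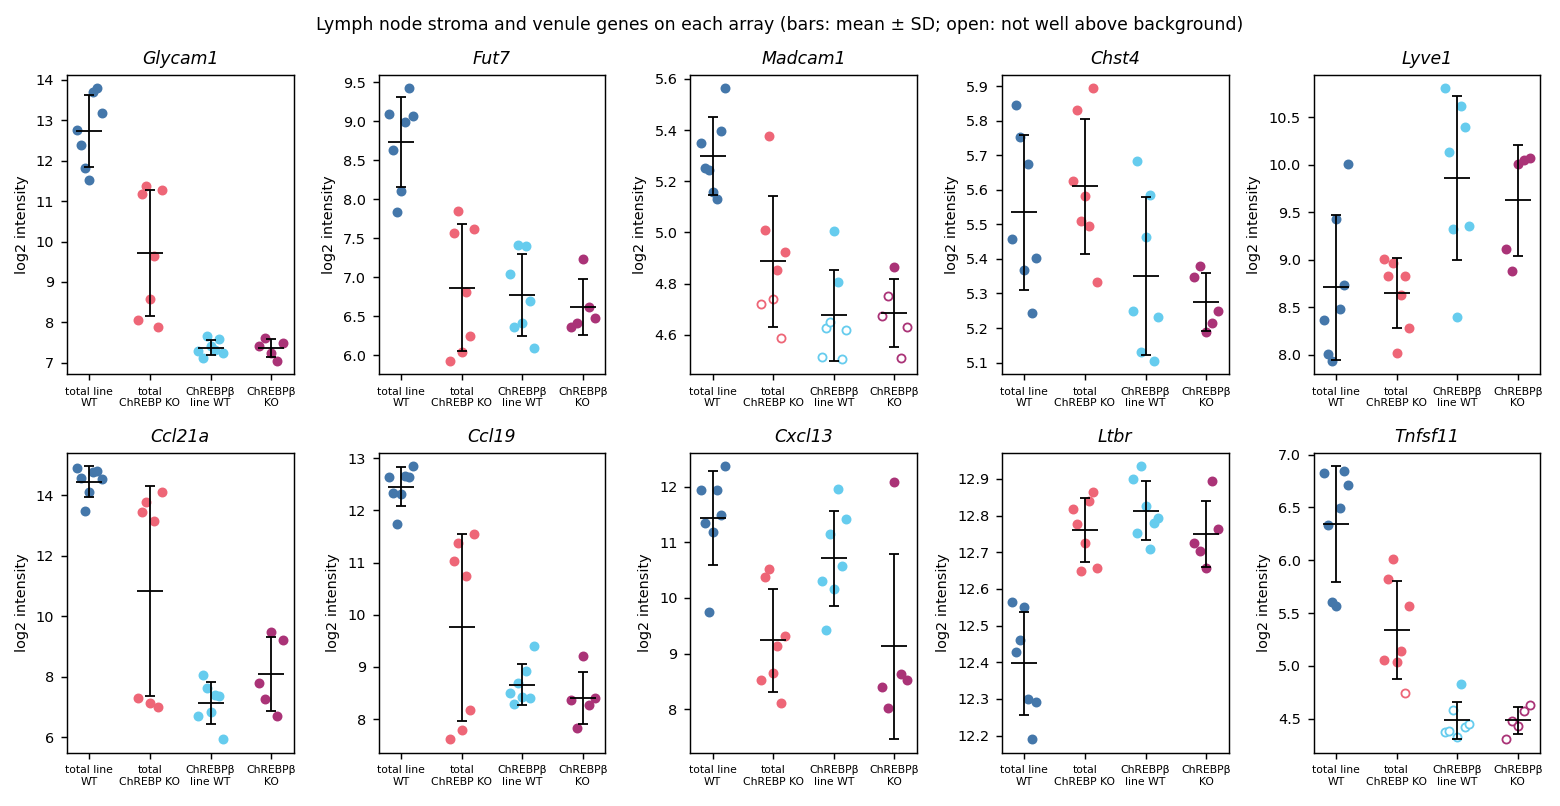
Quantile-normalized log2 intensity (vertical axis) of the 10 genes on each of the 26 arrays, by group, with black bars for the mean ± SD and open points for spots not well above background. Glycam1 sits between 11.52 and 13.80 in WT of the total line and between 7.05 and 7.66 in both groups of the ChREBPβ line, and the total ChREBP-KO arrays lie between.

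Among the venule genes, Glycam1 and Fut7 fell in total ChREBP KO and did not differ detectably in ChREBPβ KO. Glycam1, a mucin-like carrier of these sugars, had a lowest, median and highest log2 intensity of 11.52, 12.76 and 13.80 in WT of the total line, and of 7.89, 9.65 and 11.37 in total ChREBP KO. It stood at 7.13, 7.31 and 7.66 in WT of the ChREBPβ line, and at 7.05, 7.24, 7.42, 7.50 and 7.61 on the 5 ChREBPβ-KO arrays. The total line therefore held every high value, total ChREBP-KO arrays lay below all their WT littermates, and both also lay above every array of the ChREBPβ line. The total ChREBP-KO difference was -3.02 (SE 0.48, adjusted p = 1.59e-05), 8.12-fold lower, and the ChREBPβ-KO difference was -0.01 (SE 0.52, 95% interval -1.09 to 1.07, adjusted p = 0.999). Against WT mice of the total line, WT mice of the ChREBPβ line differed by -5.36 (SE 0.48, adjusted p = 8.73e-09), with no overlap. The second Glycam1 probe gave -3.56 (adjusted p = 2.93e-05) in total ChREBP KO, and it was well above background on all 14 arrays of the total line but on 2 of 7 WT and 1 of 5 KO arrays of the ChREBPβ line.

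Fut7, which adds fucose to these sugars and is also made by leukocytes, ran from 7.84 over a median of 8.99 to 9.43 in WT of the total line and from 5.93 over 6.81 to 7.85 in total ChREBP KO. It ran from 6.09 over 6.69 to 7.41 on WT arrays of the ChREBPβ line, and was 6.37, 6.42, 6.47, 6.61 and 7.24 in ChREBPβ KO. The highest total ChREBP-KO array just reached the lowest WT array of its line, and KO arrays of the total line spanned the whole range of the ChREBPβ line. The total ChREBP-KO difference was -1.87 (SE 0.31, adjusted p = 2.52e-05), 3.66-fold lower, and the ChREBPβ-KO difference was -0.15 (SE 0.34, adjusted p = 0.976).

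Madcam1 was dim. It was well above background on 7 of 7 WT and 4 of 7 KO arrays of the total line, and on 2 of 7 WT and 1 of 5 KO arrays of the ChREBPβ line. It had passed the filter only through WT of the total line, where it was highest. Its difference from that group therefore follows in part from the filter. Mean levels were 5.30 ± 0.15, 4.89 ± 0.26, 4.68 ± 0.18 and 4.69 ± 0.13 in the order total-line WT, total ChREBP KO, ChREBPβ-line WT and ChREBPβ KO (SD, n = 7, 7, 7 and 5), and the total ChREBP-KO difference was -0.41 (SE 0.10, adjusted p = 0.0015). Chst4, the sulfotransferase of the venules, was low in all groups, with arrays between 5.11 and 5.89, yet well above background on all 26. Its group means in the same order were 5.54, 5.61, 5.35 and 5.28, with SDs from 0.08 to 0.23. Chst4 was called in none of the comparisons, with a difference of 0.07 in total ChREBP KO (95% interval -0.14 to 0.29, adjusted p = 0.584) and -0.07 in ChREBPβ KO (95% interval -0.31 to 0.16, adjusted p = 0.957). The difference between WT mice of both lines was -0.18 (95% interval -0.40 to 0.03, adjusted p = 0.154), and -0.54 (adjusted p = 0.0208) when processed signals were scaled to the 75th percentile.

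The CCR7 ligands Ccl21a and Ccl19 had the widest spread of the members within total ChREBP KO, with SDs of 3.47 and 1.80. Ccl21a had log2 intensities of 13.47 to 14.89 (median 14.58) in WT of the total line. In total ChREBP KO, replicates 2, 3, 5 and 8 were at 13.44, 13.76, 13.14 and 14.11, and replicates 1, 4 and 7 were at 7.29, 7.13 and 7.001. Replicates 3 and 8 lay within the WT range, replicates 2 and 5 just below it, and replicates 1, 4 and 7 lay with the ChREBPβ line, where WT arrays ran from 5.95 over 7.38 to 8.06 and KO arrays were 6.70, 7.27, 7.80, 9.20 and 9.49. The mean difference in total ChREBP KO was -3.61 (SE 0.97, adjusted p = 0.00368), 12.2-fold lower, over a KO SD of 3.47. The ChREBPβ-KO difference was 0.96 (SE 1.06, 95% interval -1.25 to 3.16, adjusted p = 0.922). WT mice of the ChREBPβ line stood -7.31 (SE 0.97, adjusted p = 1.32e-06) from WT mice of the total line. On the raw scale the median intensity of this probe was 23330 in WT of the total line and 162.5 in WT of the ChREBPβ line.

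Ccl19 had the same array pattern. It ran from 11.73 over 12.65 to 12.84 in WT of the total line. In total ChREBP KO it was 11.04, 11.37, 10.74 and 11.56 on replicates 2, 3, 5 and 8, and 7.62, 7.80 and 8.18 on replicates 1, 4 and 7. WT arrays of the ChREBPβ line ran from 8.29 over 8.50 to 9.39, and ChREBPβ-KO arrays were 7.82, 8.26, 8.36, 8.40 and 9.21. All total ChREBP-KO arrays lay below all their WT littermates, and 3 of them lay below every WT array of the ChREBPβ line. The total ChREBP-KO difference was -2.70 (SE 0.50, adjusted p = 0.000114), 6.49-fold lower, and the ChREBPβ-KO difference was -0.25 (SE 0.55, adjusted p = 0.976). WT mice of both lines differed by -3.80 (SE 0.50, adjusted p = 1.28e-06).

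Cxcl13, the CXCR5 ligand, behaved otherwise in the ChREBPβ line. Its lowest, median and highest values were 9.75, 11.49 and 12.36 in WT of the total line and 8.12, 9.14 and 10.53 in total ChREBP KO. In the ChREBPβ line they were 9.43, 10.58 and 11.95 in WT, while KO arrays were 8.02, 8.40, 8.52 and 8.64 with 1 array, replicate 4, at 12.07. WT mice of both lines overlapped widely, and 4 of the 5 ChREBPβ-KO arrays lay below every WT array of their line. Cxcl13 fell by 2.19 (SE 0.53, adjusted p = 0.00154) in total ChREBP KO. Its ChREBPβ difference was -1.58 (SE 0.58, 95% interval -2.79 to -0.37, adjusted p = 0.478), and -2.32 (adjusted p = 0.0419) without ChREBPβ-KO replicate 4. WT mice of both lines differed in Cxcl13 by -0.72 (SE 0.53, adjusted p = 0.285), and the 2 KO effects by 0.62 (SE 0.79, adjusted p = 0.62).

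Lyve1, the hyaluronan receptor of lymphatic endothelium that some tissue macrophages also carry, was called in neither KO. Its lowest, median and highest values were 7.94, 8.48 and 10.004 in WT of the total line, 8.02, 8.82 and 9.004 in total ChREBP KO, and 8.40, 10.14 and 10.81 in WT of the ChREBPβ line. On the ChREBPβ-KO arrays it was 8.88, 9.11, 10.01, 10.05 and 10.07. Each pair of groups overlapped. Lyve1 was higher in WT of the ChREBPβ line than in WT of the total line by 1.15 (SE 0.34, adjusted p = 0.00742), opposite in direction to Glycam1, Ccl21a and Ccl19. Its KO differences were -0.06 (95% interval -0.77 to 0.65, adjusted p = 0.906) in the total line and -0.24 (95% interval -1.01 to 0.54, adjusted p = 0.96) in the ChREBPβ line.

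Of the receptor and ligand members, Ltbr was high everywhere and Tnfsf11 was low. Ltbr, the receptor through which lymphotoxin keeps venules and stroma differentiated, is made by many cell types. It ran from 12.19 over 12.43 to 12.56 in WT of the total line, from 12.65 over 12.78 to 12.86 in total ChREBP KO and from 12.71 over 12.79 to 12.93 in WT of the ChREBPβ line. The ChREBPβ-KO arrays were 12.66, 12.70, 12.72, 12.76 and 12.90. WT of the total line alone was lower, with no overlap with any other group. Ltbr rose by 0.36 (SE 0.06, adjusted p = 2.94e-05) in total ChREBP KO, 1.29-fold, and was 0.42 (SE 0.06, adjusted p = 4.29e-06) higher in WT of the ChREBPβ line than in WT of the total line.

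Tnfsf11, the RANK ligand, was well above background on 7 of 7 WT and 6 of 7 KO arrays of the total line, on 1 of 7 WT arrays of the ChREBPβ line and on none of its 5 KO arrays. Like Madcam1 it passed the filter only through WT of the total line. Mean levels were 6.34 ± 0.55, 5.34 ± 0.47 and 4.48 ± 0.17 (SD, n = 7 each) in WT of the total line, total ChREBP KO and WT of the ChREBPβ line, and the ChREBPβ-KO level is only a bound. Tnfsf11 fell by 1.00 (SE 0.20, adjusted p = 0.000208) in total ChREBP KO, with WT arrays from 5.57 to 6.85 and KO arrays from 4.74 to 6.02. A second Tnfsf11 probe did not pass the filter. In the total line it was well above background on 7 of 7 WT and 5 of 7 KO arrays. By all spot calls together it was usable on 3 and 4 of them. Its median raw intensity was 72 in WT of the total line, 30 in total ChREBP KO, 19 in WT of the ChREBPβ line and 21 in ChREBPβ KO.

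In total ChREBP KO, 8 of the 10 members were called: Glycam1, Fut7, Madcam1, Ccl21a, Ccl19, Cxcl13 and Tnfsf11 fell and Ltbr rose. Of all genes tested in that comparison, 45.9% were called, 20.2% lower and 25.7% higher. Without Madcam1 and Tnfsf11, whose difference follows in part from the filter, 6 of 8 members were called, 5 lower and 1 higher. With slide as a fixed block, 6 of the 10 were called, and Ccl21a (adjusted p = 0.116) and Madcam1 (adjusted p = 0.0781) were not. The share of all genes called was 22% with that block. KO and WT arrays did not overlap for 2 of the members that fell (Glycam1 and Ccl19) and for Ltbr, against 4.79% of genes lower without overlap and 9.78% higher without overlap. The median difference was 0.05 over all genes. For ChREBPβ KO limma called 0 members, against 0.0497% of all genes (0.00765% higher and 0.0421% lower), and Cxcl13 was the 1 member with an unadjusted p under 0.05. KO and WT arrays of the ChREBPβ line overlapped for all 10 members. Nearly all genes did the same, since 0.0996% lay higher and 0.257% lower without overlap.

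Between WT mice of both lines, which differ in line alone by the labels, 8 members were called against 45.8% of all genes. Glycam1, Fut7, Madcam1, Ccl21a, Ccl19 and Tnfsf11 were lower in the ChREBPβ line, each without overlap (19.7% of genes were called lower and 6.42% lay lower without overlap). Madcam1 and Tnfsf11 had passed the filter only through WT of the total line, and without them 4 of 8 members were lower, each without overlap. Lyve1 and Ltbr were higher, Ltbr without overlap (26.1% and 10.5%). Of all calls in this comparison 57% were higher, and 46.7% when unsubtracted median intensities were scaled to the 75th percentile. This comparison and the total ChREBP-KO comparison share the 7 WT arrays of the total line.

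**Figure D2:**
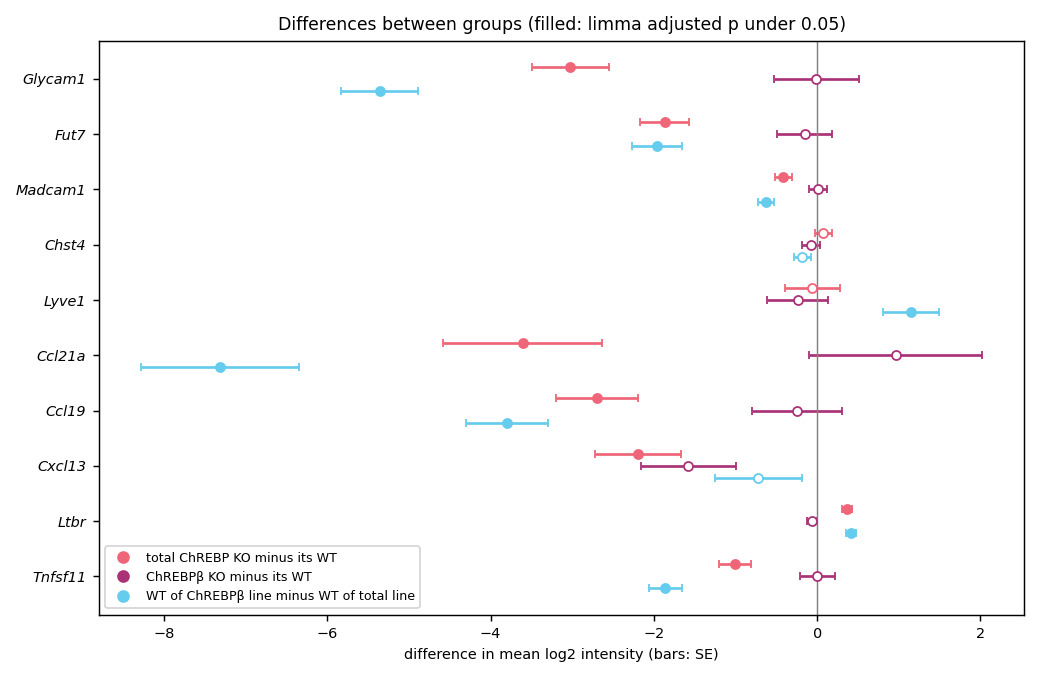
Difference in mean log2 intensity (horizontal axis, bars for the SE) of the 10 genes in total ChREBP KO against its WT, in ChREBPβ KO against its WT and between WT mice of both lines, with filled points for an adjusted p under 0.05. For Glycam1, Fut7, Madcam1, Ccl21a, Ccl19 and Tnfsf11 the difference between WT mice of both lines lies further below 0 than that of total ChREBP KO, and all 10 ChREBPβ-KO points are open.

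The difference between both KO effects was tested itself, as the ChREBPβ effect minus the total effect. It was called for 7 of 10 members, against 23.2% of all genes. For 6 of them it was higher than 0 (10.2% of genes), that is, the total ChREBP-KO difference was the more negative one: 4.57 (SE 1.44, adjusted p = 0.0242) for Ccl21a, 3.01 (SE 0.71, adjusted p = 0.00366) for Glycam1, 2.45 (SE 0.75, adjusted p = 0.02) for Ccl19, 1.72 (SE 0.45, adjusted p = 0.00847) for Fut7, 1.00 (SE 0.29, adjusted p = 0.0158) for Tnfsf11 and 0.42 (SE 0.15, adjusted p = 0.0408) for Madcam1. For Ltbr it was -0.43 (SE 0.09, adjusted p = 0.00136), and lower values were called for 13% of genes. Madcam1 and Tnfsf11 had passed the filter only through WT of the total line, so their values follow in part from the filter. Without them the difference was called for 5 of 8 members, 4 higher and 1 lower. In WT of the ChREBPβ line Madcam1, Tnfsf11 and the second Glycam1 probe were at background on most arrays and the lead Glycam1 probe was flat at 7.38 ± 0.19 (SD, n = 7), so these data could hardly show a fall of these 3 genes in ChREBPβ KO. Madcam1 lost its call in 16 of the 26 fits that left out 1 array, with an adjusted p of up to 0.0857 (without ChREBPβ-KO replicate 4), and without that array the Ccl21a value was 4.22 (adjusted p = 0.0517). With slide as a fixed block 0 of the differences between both KO effects were called by limma, and 6 had an unadjusted p under 0.05. The share of all genes called was 1.59% with that block.

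Several members moved with the B cell gene from array to array. Cd79b was 13.65 ± 0.89, 11.17 ± 1.49, 8.75 ± 0.38 and 8.76 ± 0.84 in the order total-line WT, total ChREBP KO, ChREBPβ-line WT and ChREBPβ KO (SD, n = 7, 7, 7 and 5), and it fell by 2.48 (SE 0.50, adjusted p = 0.000253) in total ChREBP KO. On the total ChREBP-KO arrays it was 12.33, 12.99, 11.46 and 12.17 on replicates 2, 3, 5 and 8 and 9.60, 10.67 and 8.97 on replicates 1, 4 and 7. The replicates with Ccl21a above 13 are thus those with the 4 highest Cd79b values. In bulk tissue, fewer cells of a type and less mRNA per cell cannot be told apart.

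**Figure D3:**
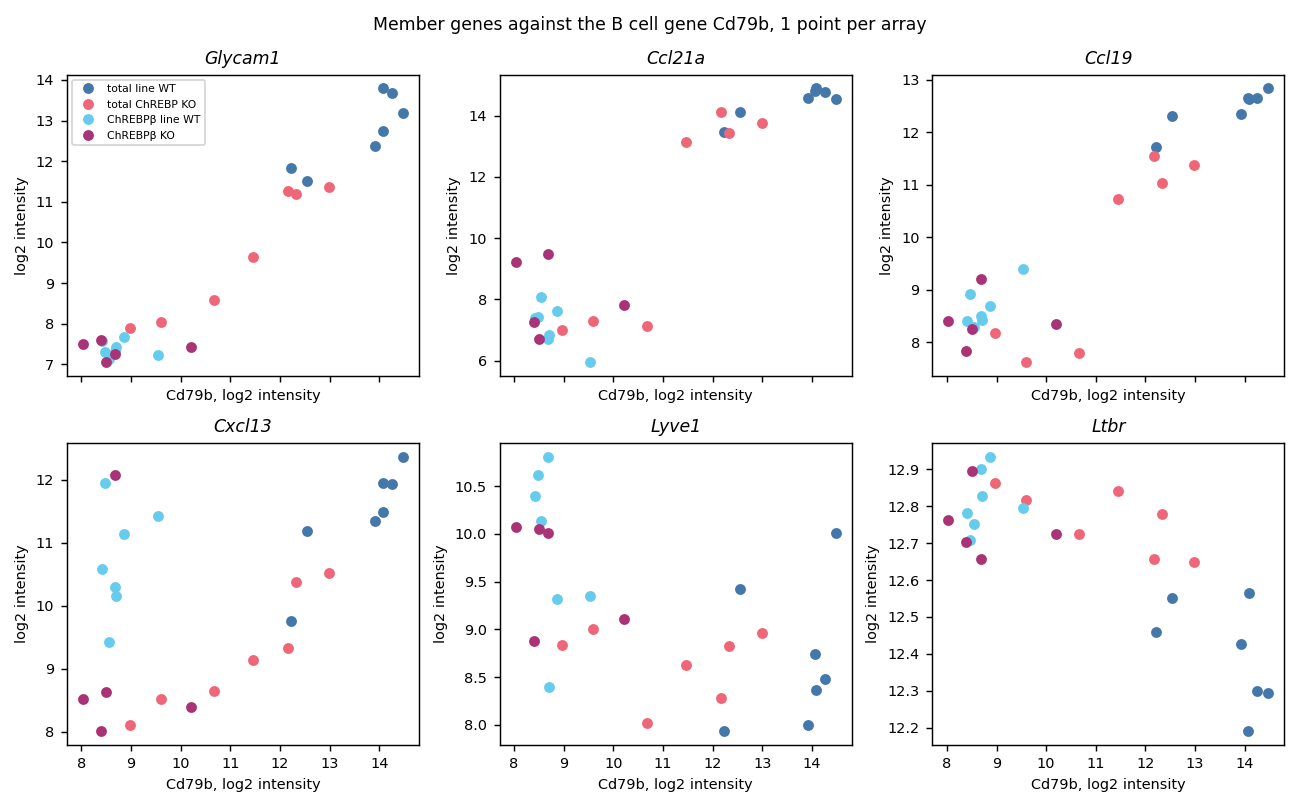
Log2 intensity of Glycam1, Ccl21a, Ccl19, Cxcl13, Lyve1 and Ltbr (vertical axes) against that of Cd79b (horizontal axis), 1 point per array, coloured by group. Glycam1 rises with Cd79b through the total ChREBP-KO arrays, Ccl21a steps between arrays near 7 and arrays above 13, and the WT arrays of the ChREBPβ line reach 11.95 for Cxcl13 at Cd79b values below 9.6.

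Relations were computed within groups of at least 6 arrays, 30 in all. In WT of the total line Cd79b itself fell into separate clusters, with a gap of 61.2% of its range. In WT of the ChREBPβ line 1 array, replicate 8 at 9.53, stood above the others by 59.9% of the range. No correlation is given for either WT group. In total ChREBP KO (n = 7) the relation could be given for 8 members, since Ccl21a and Ccl19 fell into clusters with gaps of 82.4% and 65.0% of their range. Within these 7 arrays Glycam1 had r = 0.96 (exact permutation p = 0.000397) and Spearman's rho = 0.96 (exact permutation p = 0.00278). Tnfsf11 had r = 0.93 (exact permutation p = 0.00377; rho = 0.96, p = 0.00278) and Cxcl13 r = 0.93 (exact permutation p = 0.00536; rho = 1, p = 0.000397). Fut7 had r = 0.91 (exact permutation p = 0.00853; rho = 0.86, p = 0.0238) and Madcam1 r = 0.90 (exact permutation p = 0.00298; rho = 1, p = 0.000397), but Madcam1 was well above background on only 4 of these arrays, so part of its order is an order of background values. Without the 2 arrays farthest from the median of Cd79b, r was 0.95 for Glycam1, 0.96 for Tnfsf11, 0.91 for Cxcl13, 0.97 for Fut7 and 0.91 for Madcam1. Ltbr ran the other way at r = -0.73 (exact permutation p = 0.077; rho = -0.75, p = 0.0663) and -0.45 without those 2 arrays. With other values its exact permutation p was under 0.05. There r was -0.92 (processed signals) and -0.89 (median intensities), both scaled to the 75th percentile, and -0.84 (background-corrected, quantile-normalized). Chst4 had r = -0.50 (exact permutation p = 0.258) and 0.01 without those 2 arrays, and Lyve1 r = -0.07 (exact permutation p = 0.877) and 0.81 without them. All p-values of this relation are two-sided and unadjusted, and the Lyve1 and Chst4 values rest on those 2 arrays. With Cd3e, a T cell gene, in place of Cd79b, 2 members had an exact permutation p under 0.05 in total ChREBP KO (n = 7) in place of 5. The share of all genes under that threshold on these arrays was not computed, so neither count sets the members apart from other genes.

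A single slope on Cd79b, assumed to be the same in all groups, was fitted over all 26 arrays with the group means kept apart and was called for 6 members. It was 1.32 log2 units of Ccl21a per log2 unit of Cd79b (SE 0.29, adjusted p = 0.00414), 0.80 for Glycam1 (SE 0.11, adjusted p = 2.38e-05) and 0.78 for Ccl19 (SE 0.13, adjusted p = 0.000292). It was 0.40 for Fut7 (adjusted p = 0.00785), 0.28 for Tnfsf11 (adjusted p = 0.0015) and 0.11 for Madcam1 (adjusted p = 0.0321). Over all genes 7.61% had a called slope above 0 and 2.33% one below 0. Cxcl13, at 0.55 (SE 0.19, adjusted p = 0.0673), Ltbr at -0.05 (adjusted p = 0.214), Chst4 at -0.05 (adjusted p = 0.444) and Lyve1 at -0.05 (adjusted p = 0.842) were not called. Whether the slope is the same in all groups was not tested, and the covariate fit below makes the same assumption. In WT of the ChREBPβ line the array with the highest Cd79b (replicate 8, 9.53) had the lowest Ccl21a (5.95) and Fut7 (6.09) of its group. It had the highest Ccl19 (9.39), and the other called members lay between.

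With Cd79b as a covariate, 1 of the 10 members was called in total ChREBP KO. This was Ltbr, at 0.25 (SE 0.08, adjusted p = 0.0311). Glycam1 was at -1.04 (SE 0.38, adjusted p = 0.062), Fut7 at -0.88 (SE 0.34, adjusted p = 0.0738), Cxcl13 at -0.84 (SE 0.66, adjusted p = 0.417) and Ccl21a at -0.33 (SE 1.03, adjusted p = 0.863). Over all genes 17% were called in that fit. Between WT mice of both lines 0 members were called with the covariate, and 1 had an unadjusted p under 0.05, while 4.09% of all genes were called in that fit. There the Cd79b ranges of both WT groups, 12.22 to 14.48 and 8.41 to 9.53, do not meet, so the value rests on the fitted slope alone.

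**Figure D4:**
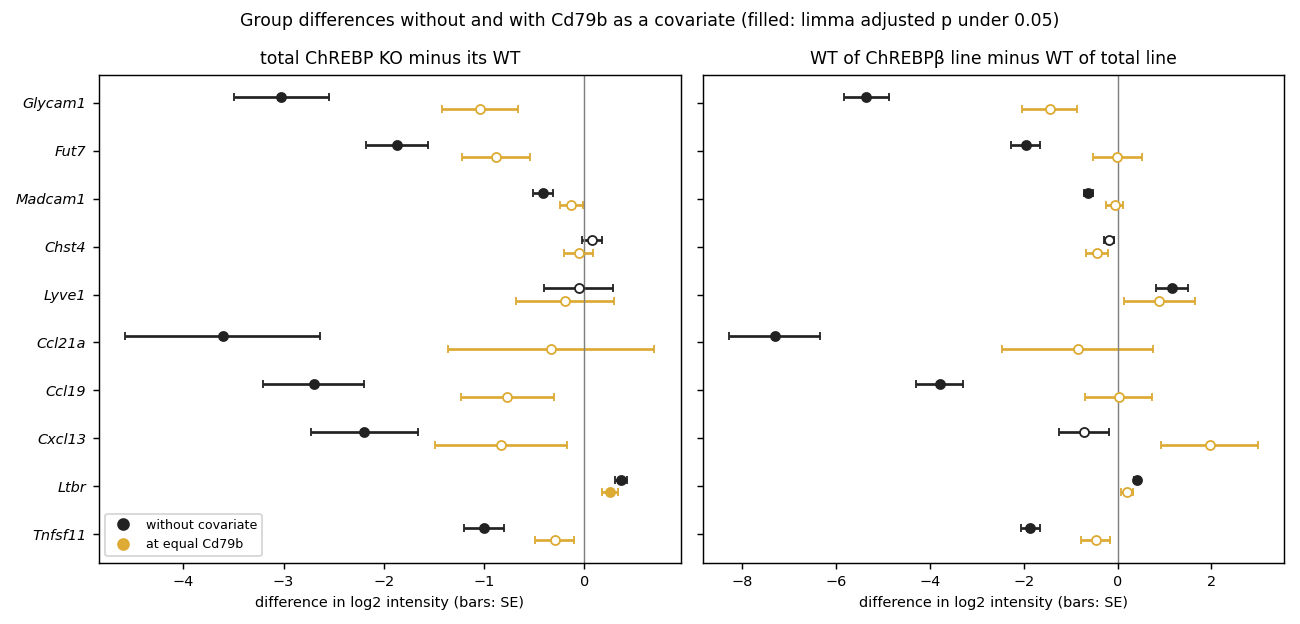
Difference in log2 intensity (horizontal axes, bars for the SE) of the 10 genes without a covariate (black) and with Cd79b as a covariate (yellow), for total ChREBP KO against its WT (left) and for WT mice of both lines (right), with filled points for an adjusted p under 0.05. Glycam1 goes from -3.02 to -1.04 in total ChREBP KO, and Ltbr is the 1 filled point that is left with the covariate.

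Cells and signals around the members were followed through gene lists, whose counts are to be read against the shares of all genes called: 20.2% lower and 25.7% higher in total ChREBP KO, and 19.7% lower and 26.1% higher between WT mice. Of 6 chemokine and homing receptors, all 6 fell in total ChREBP KO, among them Ccr7 (-2.95), Cxcr5 (-2.58) and the integrin chains Itgb7 (-1.50) and Itga4 (-1.47), and all 6 were lower in WT of the ChREBPβ line than in WT of the total line. Their median difference in total ChREBP KO was -1.48 against 0.05 over all genes. Of 12 tested genes of the lymphotoxin and RANK pathway, 10 fell and 1 rose in total ChREBP KO. The falls included the lymphotoxin chains Ltb (-2.09) and Lta (-1.89) and Relb (-1.36), a subunit of the non-canonical NF-κB pathway, and the rise was that of the TNF receptor Tnfrsf1a (0.33). Among WT mice 10 were lower in the ChREBPβ line and 1 higher, with Ltb at -4.75 and Lta at -3.71.

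Other markers of node stroma were mixed. Of 12 tested genes of lymphoid stroma and follicular dendritic cells, 5 fell and 1 rose in total ChREBP KO, and the largest falls were Fcer2a (-2.72), Cr2 (-2.61), Bst1 (-1.83) and Clu (-1.54). Cr2 and Fcer2a encode the complement receptor CD21 and the IgE receptor CD23, which B cells carry as well as follicular dendritic cells. The general fibroblast markers Pdgfra (0.03) and Pdgfrb (-0.04) were not called in total ChREBP KO, and neither were Pdpn (-0.33) and Cxcl12 (-0.03), all 4 named after their values were seen. Among WT mice 5 of the 12 were lower in the ChREBPβ line and 5 higher, and the largest differences were Fcer2a (-5.43), Cr2 (-5.23), Grem1 (-3.08) and Clu (-1.86), all lower in the ChREBPβ line, although Grem1 was well above background on 11 of the 26 arrays. The median of the list was -0.27 in total ChREBP KO and 0.20 between WT mice, where the median over all genes was 0.03.

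Of 14 further venule genes, 5 fell and 2 rose in total ChREBP KO. Gcnt1 (-1.38), which builds the branched core of such sugars, the adhesion molecules Vcam1 (-1.16) and Icam1 (-1.04) and the fucosyltransferase Fut4 (-1.04) changed most. The median of the list was 0.07, near that of all genes, and between WT mice of both lines 6 were lower and 5 higher. Of 10 tested genes of lymphatic endothelium, 5 fell in total ChREBP KO and none rose, led by the scavenger receptor Stab2 (-1.29), Nt5e (-0.63), the master regulator Prox1 (-0.53) and Ackr4 (-0.45), with a list median of -0.40. Among WT mice 4 were lower and 4 higher, with Stab2 at -2.67, Mmrn1 at -1.78, Pdpn at 1.11 and Prox1 at -1.02. In ChREBPβ KO no gene of any of the 12 lists was called.

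Markers of other cell types moved with these genes. All 8 B cell and all 8 T cell markers fell in total ChREBP KO, and their mean log2 levels per array were taken as scores. For B cells the score ran from 9.30 to 11.11 for WT of the total line, 6.85 to 9.80 for its KO, 6.47 to 7.19 for WT of the ChREBPβ line, and 6.33 to 7.86 for ChREBPβ KO. The T cell score had ranges of 11.04 to 12.31, 7.89 to 11.56, 7.67 to 9.37, and 7.79 to 9.06 over the same groups. All 8 adipocyte markers rose in total ChREBP KO, and their score had ranges of 15.30 to 15.77, 16.22 to 16.37, 16.01 to 16.21, and 15.95 to 16.39 in that order of groups, so adipocyte mRNAs were abundant on all arrays. Of the other lists, 3 of 7 blood endothelial markers rose, 2 of 8 macrophage markers fell and 0 of 8 epithelial markers were called in limma, while 2 of 7 skeletal muscle markers rose. The muscle score varied widely, up to 11.93 for WT of the total line and 14.48 for its KO. With this score as a covariate 8 members were still called in total ChREBP KO, against 41.9% of all genes. The part of the lymphocyte and adipocyte markers in the differences, beyond the Cd79b covariate above, was not tested.

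The genes most like each member over the 26 arrays, among 17739 genes with a reference symbol, are given as a description, since arrays of 4 groups share their group means. Ccl21a was closest to the probes named for its copies Gm1987 (r = 0.998) and Gm13304 (0.991) and to Insm1 (0.976). The Gm1987 probe is annotated close to that of Ccl21a, so both may read the same transcript. Glycam1 was closest to Col6a4 (0.991), Tspan10 (0.985) and Il4i1 (0.983), Ccl19 to the T cell costimulator Cd28 (0.984), Nudt17 (0.984) and Afp (0.982), and Fut7 to Rab19 (0.982), Arhgdib (0.981) and Ptpn7 (0.98). Tnfsf11 was closest to Ell3 (0.975), Gal3st2 (0.972) and Col6a4 (0.971), and Madcam1 to Nfya (0.933), Ankrd33b (0.917) and Hsh2d (0.915). Cxcl13 was closest to the lymphoid transcription factor Irf4 (0.938), Gcnt1 (0.911) and Mcoln2 (0.911), and Lyve1 to Fcna (0.939), Fxyd2 (0.933) and the macrophage transglutaminase F13a1 (0.931). Ltbr was closest to Pard3 (0.924), Ebpl (0.915) and Camk2n2 (0.913), and Chst4 to Gm14204 (0.814), Gucy1b2 (0.803) and Agbl4 (0.788). With Cd79b itself r was 0.973 for Glycam1, 0.952 for Tnfsf11, 0.932 for Ccl19, 0.917 for Ccl21a, 0.88 for Madcam1 and 0.839 for Fut7, against 0.469 for Cxcl13, 0.32 for Chst4, -0.545 for Lyve1 and -0.8 for Ltbr. These r values pool the 4 groups and so carry the differences between group means, and the share of all genes with such values was not computed. Within total ChREBP KO alone (n = 7), r with Cd79b was 0.93 for Cxcl13, -0.50 for Chst4, -0.07 for Lyve1 and -0.73 for Ltbr.

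Samples had been washed in 4 batches by the labels, and each held both groups of the total line. Within the 4 batches the total ChREBP-KO difference of Glycam1 ran from -4.72 to -1.38, of Ccl21a from -4.59 to -1.29, of Ccl19 from -3.29 to -1.45 and of Cxcl13 from -3.30 to -0.23. Those of Fut7 (-2.72 to -0.95), Tnfsf11 (-1.84 to -0.07), Madcam1 (-0.76 to -0.20) and Ltbr (0.27 to 0.61) also kept their direction. Between WT mice of both lines, the 8 called members kept their direction within all 4 batches too, and Cxcl13, which was not called, ran from -1.36 to 0.40. Each batch held 1 or 2 arrays of each total-line group and 1 to 3 WT arrays of the ChREBPβ line. The directions of Madcam1 and Tnfsf11 follow in part from the filter, which they passed only through WT of the total line. The share of all genes that kept their direction was not computed.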

How the data were processed

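One-colour Agilent arrays of subcutaneous inguinal white adipose tissue were analysed, 26 arrays in 4 groups taken from the labels. Per the submitters' processing notes, intensities were extracted with Agilent Feature Extraction 10.10.1.1 and imported with limma. The deposited scanner files hold spot intensity on a linear scale with calls of 0 or 1 per spot, 62976 spots each, of which 59305 are not controls. Log2 values of the same arrays were deposited too; the authors had filtered on spot calls, averaged replicate spots by their median and quantile-normalized.

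Values were recomputed from the scanner files: median spot intensity without background subtraction, spots called outliers set to missing, probes kept where usable on at least 5 arrays of a group, log2, median of replicate spots, then quantile normalization. The result matched the deposited log2 table to within 0.01 for 99.94% of values and by at most 0.0818, so its scale and direction are settled. It holds 40168 probes and 97 missing values.

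In R 4.3.3, limma 3.58.1 (lmFit, then eBayes) fitted the 4 group means over all 26 arrays with 22 residual degrees of freedom, after a test on simulated data. A gene was read by its lead probe, the one with the highest mean. The genes named are the 10 members, Cd79b, Mlxipl, at most 4 called genes per list and comparison with the largest change, and the 3 genes most like each member; Pdgfra, Pdgfrb, Pdpn, Cxcl12 and Tnfrsf1a were named after their values were seen. Members and lists were chosen with earlier results of these data known. The precision of the values is limited by the number of arrays. Probe names and mm9 positions are those of the array files, and promoters are those of RefSeq for GRCm38.p6, read with Python 3.11.15. Alternatives covered the source of values, scaling, background, filter, outlier spots, blocks, array weights, covariates and left-out arrays. The stricter filter, the muscle covariate and the common slope on Cd79b were added after seeing the data. 1 gene of the list of chemokine and homing receptors is not reported here.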

Additional observations from a re-analysis of the deposited data

Results flagged for a closer look

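Cxcl13 on the array of ChREBPβ-KO replicate 4 was 12.07, and the nearest of the other 4 arrays of its group was 8.64. Fut7 on the same array was 7.24, with the nearest at 6.61. Both stand apart by the gap to the nearest array as a share of the group's range, which chance flags in about 1 in 20 groups. Cd79b was 8.68 on this array, within the range of its group.

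The total and ChREBPβ effects differed by the interaction term of limma for 7 members, among them Madcam1 and Tnfsf11, which had passed the filter only through WT of the total line. The difference, ChREBPβ effect minus total effect, was 4.57 for Ccl21a, 3.01 for Glycam1, 2.45 for Ccl19, 1.72 for Fut7, 1.00 for Tnfsf11, 0.42 for Madcam1 and -0.43 for Ltbr. With Cd79b as a covariate it was 1.27 for Ccl21a, 1.02 for Glycam1, 0.51 for Ccl19, 0.72 for Fut7, 0.29 for Tnfsf11, 0.14 for Madcam1 and -0.31 for Ltbr, with adjusted p-values from 0.0589 to 0.672.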

How the results depend on the processing

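In total ChREBP KO the count of called members was 8 under the other sources of values, scalings, background correction, no filter, kept outlier spots, wash batch, random slide block, array weights and muscle score. It was 7 under the stricter filter, where Madcam1 was not tested, 6 with slide as a fixed block (8 residual degrees of freedom; Ccl21a adjusted p = 0.116, Madcam1 0.0781), and 1 with Cd79b as a covariate. With slide as a fixed block or Cd79b as a covariate, the count of called differences between both KO effects was 0, with 6 and 2 members at an unadjusted p under 0.05, and Mlxipl in ChREBPβ KO was at -1.54 (adjusted p = 0.279) with the slide block. Between WT mice of both lines the covariate left 0 called members, and Ccl19 turned to 0.019 (adjusted p = 0.992). Leaving out each array in turn gave 8 to 8 called members in total ChREBP KO, 0 to 1 in ChREBPβ KO (1 without KO replicate 4, Cxcl13), 5 to 7 for the difference of both effects and 8 to 8 between WT mice, with Mlxipl from -2.33 to -2.21 and from -1.59 to -1.44. In these refits 17 of the calls on the difference of both effects were lost, 1 of them Ccl21a without ChREBPβ-KO replicate 4 and the others Madcam1. The all-gene count in ChREBPβ KO was 13, with 2 to 65 over left-out arrays (65 without KO replicate 4) and 0 to 47 over other settings. In total ChREBP KO it was 11994, and 5741 with the slide block and 4452 with the Cd79b covariate. For the difference of both effects it was 6062, and 415 with the slide block, 3846 with the replicate block and 2031 with the covariate. Between WT mice it was 11971, and 1071 with the covariate. The cause of these changes was not tested. Replicate numbers did not pair the arrays (r of deviations from -0.357 to 0.506 over 6 pairs of the total line and -0.331 to 0.137 over 4 pairs of the ChREBPβ line, own number best in 2 of 6 and 0 of 4). With the replicate block, 8 members were called in total ChREBP KO, 0 in ChREBPβ KO and 4 for the difference of both effects, and it allowed no comparison between WT mice. The relation to Cd79b in total ChREBP KO was past the threshold for 5 members, and for 5 to 6 with other values. Under some of these other values Ltbr also had an exact permutation p under 0.05. With Cd3e in place of Cd79b the relation was past the threshold for 2 members in total ChREBP KO, and in 7 relations over 3 groups. Madcam1 and Tnfsf11 were at background in the ChREBPβ line, which limits what a fall there could show.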
